A study of Homo sapiens with 2 samples.

Results

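The small (40S) subunit of the human ribosome is built from one ribosomal RNA and a set of proteins that are each needed once per subunit. Footprints on 28 genes for these proteins are described, of 57820 Ensembl IDs in the count table: RPSA, FAU and genes named RPS. The genes were taken by ID from a list of 31 Ensembl IDs. All 31 were found in the table, and every group value below is over 28 of them. The data are 2 ribosome profiling libraries of HEK293, an established human embryonic kidney line, in which RNase I trims away unprotected RNA and the fragments held by ribosomes are sequenced. Both libraries are vehicle controls, cells in DMSO for 12 h; replicate 1 is batch 1 and replicate 2 is batch 2. Nothing beyond the batch number says that they were separate cultures, so the SD over 2 libraries may be partly technical.

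Messenger RNAs of ribosomal proteins are among the most heavily translated in growing cells. Most begin with a terminal oligopyrimidine tract, a C at the cap followed by a run of C and T (U in the RNA), through which mTORC1 signalling and the RNA-binding protein LARP1 adjust their translation together. Most of these genes have also left many processed pseudogenes, copies of the spliced mRNA elsewhere in the genome, and several carry small nucleolar RNAs (snoRNAs) in their introns. Cells assemble the proteins into subunits in fixed proportion and degrade unassembled copies.

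The tract can be seen at the annotated starts. RefSeq start sites (build GRCh38.p14) were listed for 25 of the 28 genes, with 28 starts in all, and each was read for a first base of C followed by at least 4 more bases that are C or T on the gene's strand. Of the 25 genes, 19 had such a start, a share of 76.0%. Among 15842 protein-coding genes of the same table it was 6.24%, and among all 35116 listed starts 4.07%. The run was between 6 and 14 bases long at those 19 starts. The sequences below show 10 bases before and 20 bases from the start. They are of the gene with the longest run (RPS24) and of genes with high counts, low counts or no such run. Capitals mark the unbroken C and T run from the first transcribed base.
RPS24 (chr10:78033853-78033882, plus strand): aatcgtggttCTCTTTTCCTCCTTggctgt
RPS3 (chr11:75399508-75399537, plus strand): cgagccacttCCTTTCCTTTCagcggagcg
RPS6 (chr9:19380217-19380246, minus strand): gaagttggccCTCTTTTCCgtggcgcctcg
RPS16 (chr19:39435930-39435959, minus strand): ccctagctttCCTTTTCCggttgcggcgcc
RPS23 (chr5:82278335-82278364, minus strand): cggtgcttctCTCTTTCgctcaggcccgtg
RPS18 (chr6:33272065-33272094, plus strand): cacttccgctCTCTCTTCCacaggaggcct
RPS3A (chr4:151099618-151099647, plus strand): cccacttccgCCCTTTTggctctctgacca
RPS27 (chr1:153990752-153990781, plus strand): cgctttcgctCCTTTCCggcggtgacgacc
RPS7 (chr2:3575250-3575279, plus strand): cgccctcctcCTCgcgctgtttccgcctct
RPS4X (chrX:72277229-72277258, minus strand): ctccagccccaatttctacgcgcaccggaa
RPS26 (chr12:56041908-56041937, plus strand): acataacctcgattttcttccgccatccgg
RPS28 (chr19:8321486-8321515, plus strand): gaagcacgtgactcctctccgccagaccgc

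The 6 genes without such a start were RPS4X, RPS7, RPS15, RPS26, RPS28 and RPS29. In RPS4X, RPS26 and RPS28 the annotated first base was a purine with pyrimidine-rich bases just after it, as the sequences show. RPS27A, which encodes ubiquitin fused to a 40S protein, had 3 listed starts, and only the most downstream of them met the rule. That start lies 10 bases after the middle one:
RPS27A, middle start (chr2:55232668-55232697, plus strand): gggcctgcgcggcgttcttccttttcgatc
RPS27A, downstream start (chr2:55232678-55232707, plus strand): ggcgttcttcCTTTTCgatccgccatctgc
These are annotated starts, not starts measured in these cells, and a match describes letters only. The 19 genes with such a start had a median summed count of 256 over both libraries, with a range of 0 to 1580, and the 6 without had a median of 25.5, with a range of 12 to 936. The sets overlapped over most of that range: RPS18 had a run of 9 bases and was at 0, and RPS4X had no run and 936 counts. Nothing was tested between these sets, and their counts are not corrected for length. RPS2, RPS15A and RPS20, for which no start was listed, are in neither set.

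**Figure D1:**
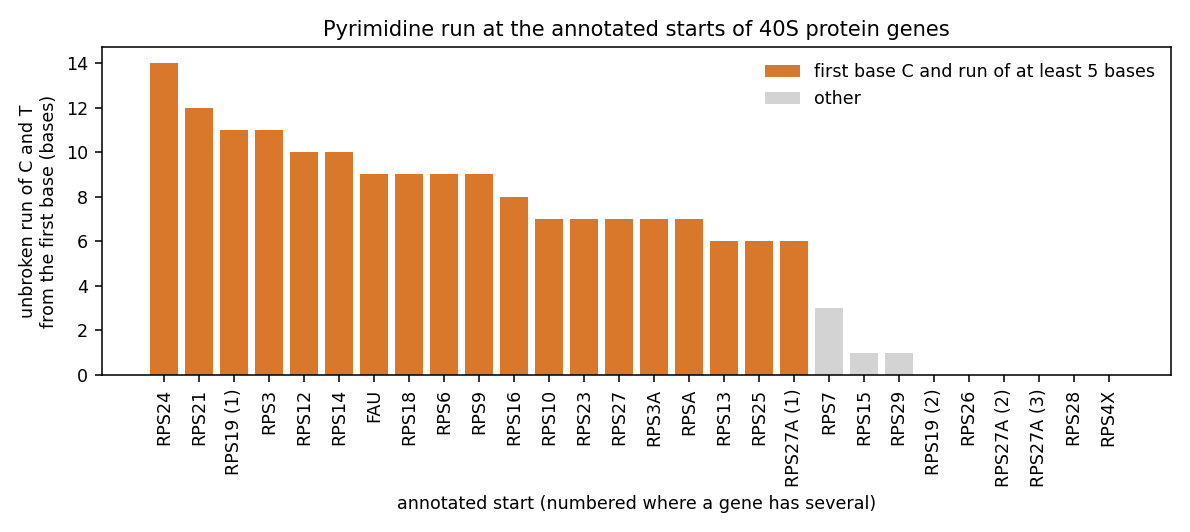
Bars give the length, in bases, of the unbroken run of C and T from the first base of each of 28 annotated starts in 25 genes (RefSeq, GRCh38.p14). The 19 coloured starts begin with C and run for 6 to 14 bases; the other 9 run for 0 to 3.

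Replicate 1 held 865838 counts and replicate 2 held 611266, a ratio of 1.42, counted over fragments of 27 to 29 nt. The 28 genes together took 4478.66 counts in replicate 1 and 3549.5 in replicate 2. Their share of all counts was 0.549% ± 0.0448 (SD, n = 2). It was 0.517% in replicate 1, with an exact Clopper-Pearson interval at 95% of 0.502 to 0.533, and 0.581% in replicate 2, with bounds of 0.562 and 0.600. The intervals of the 2 libraries did not overlap, but all intervals here cover counting error only and treat amplified fragments as independent. With the 2 highest IDs of the whole table left out of the total, the share was 0.692%.

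The counts were spread very unequally over the genes. RPS6 and RPS23 held 30.5% of the group's counts in replicate 1 and 31.9% in replicate 2, and the 8 highest genes held 76.4% and 76.5%. The 8 lowest held 1.18% and 1.27%. A summed count over both libraries of at least 100 was reached by 15 of the 28 genes, against 3.88% of all IDs in the table, and at least 20 by 22 genes, against 12.0% of IDs. RPS6 was the 1 gene of the 28 among the 100 highest IDs, which are 0.173% of the table. Coding lengths were not used here, so a count is not a rate of synthesis per codon, and the order of the counts is not an order of protein output.

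**Figure D2:**
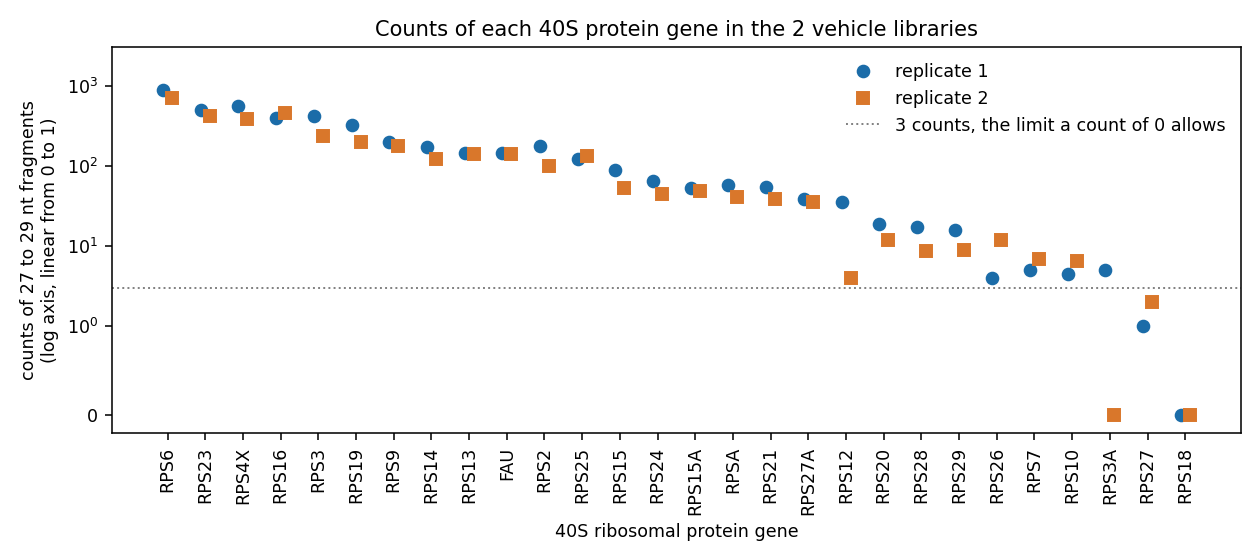
Each point is the count of one 40S protein gene in 1 library, ordered by mean CPM, on a log axis that is linear below 1. Counts run from 870 for RPS6 in replicate 1 down to 0 for RPS18 in both libraries. RPS12, with 35 and 4 counts, has the widest gap between the libraries among genes with at least 20 summed counts.

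The order of the genes was much the same in both libraries. Over the 28 genes log2(CPM + 1) correlated between them with Pearson's r at 0.95 and Spearman's rho at 0.96. This is a description: the points share both libraries, and genes are not replicates. Of the 8 highest genes in 1 library, 7 were among the 8 highest in the other. The median over the genes, in counts per 1000000 counts of the library (CPM), was 71.3 in replicate 1 and 76.1 in replicate 2, or 73.7 ± 3.36 (SD, n = 2).

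RPS6 (ENSG00000137154.8), the S6 kinase substrate used as a readout of mTORC1 activity, had 870 counts in replicate 1 and 710 in replicate 2. Its level was 1083 CPM ± 111 (SD, n = 2), rank 88 of all IDs. The 5 rows of the table on either side of it held at most 41 summed counts each. Adjacent rows cannot show whether fragments were shared with IDs elsewhere in the table. RPS23 (ENSG00000186468.8), a protein of the decoding centre, had 496.5 and 423.5 counts (633 CPM ± 84.4). Its counts were not whole although all 10 rows around it were at 0.

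RPS4X, the X-linked form of its protein, had 551 and 385 counts (633 CPM ± 4.62). RPS16, whose tail reaches the tRNA in the P site, had 398 and 461 counts, more in the shallower replicate 2, as did RPS25 with 122.5 and 133.5. RPS3, which lines the mRNA entry channel, had 413 and 237 counts.

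RPS2 (ENSG00000140988.11), a protein at the mRNA entry channel, had 178.5 counts in replicate 1 and 99.5 in replicate 2. The row 2 places after it in the table held nearly the same, 156.5 and 90.5 counts. RefSeq places 2 snoRNAs within RPS2 (SNORA10 and SNORA64), and the table's IDs are not paired with names here, so whether that row is one of them is not known. Division of a fragment over several features would give a non-whole count such as 156.5, but the counting rule is not stated in the sources used here and this was not tested. If every count of that row was an equal part of a fragment shared with RPS2, then 87.7% of the RPS2 count in replicate 1 and 91.0% in replicate 2 was of that kind. It would leave RPS2 with 22 and 9 counts.

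FAU (ENSG00000149806.6) encodes a ubiquitin-like protein fused to a 40S protein, and had 144.83 and 138.83 counts. The row after it had 204.83 and 110.83 and the next 19.33 and 7.33. All 3 rows had fractional endings of a kind that a division by more than 2 gives, though not the same ending in each. RPS28, a small protein of the head, had 17.33 and 8.67 counts, and the rows 1 and 2 places before it had 21.83 and 36.83 in replicate 1. In all, 7 of the 27 genes above 0 had a non-whole count in a library: RPSA, RPS2, RPS10, RPS23, RPS25, RPS28 and FAU. Over all IDs above 0 the share was 20.0%. These 7 genes held 22.8% of the group's counts in replicate 1 and 24.0% in replicate 2. Those shares are of their full counts, and how much of each count was divided is not known.

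RPS3 and RPS13, also hosts of snoRNAs in RefSeq, had no row of matching counts beside them. RPS3 had 413 and 237 counts and whole numbers throughout. The row after it had 48 and 15, the same order of the libraries. The row 2 places after it had 85 and 267, the opposite order. RPS13 had 144 and 141 counts, and the row 3 places after it 94 and 30. RefSeq lists snoRNAs within 7 of the 28 genes (RPSA, RPS2, RPS3, RPS3A, RPS12, RPS13 and RPS20), which held 19.0% of the group's counts in replicate 1 and 15.1% in replicate 2.

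**Figure D3:**
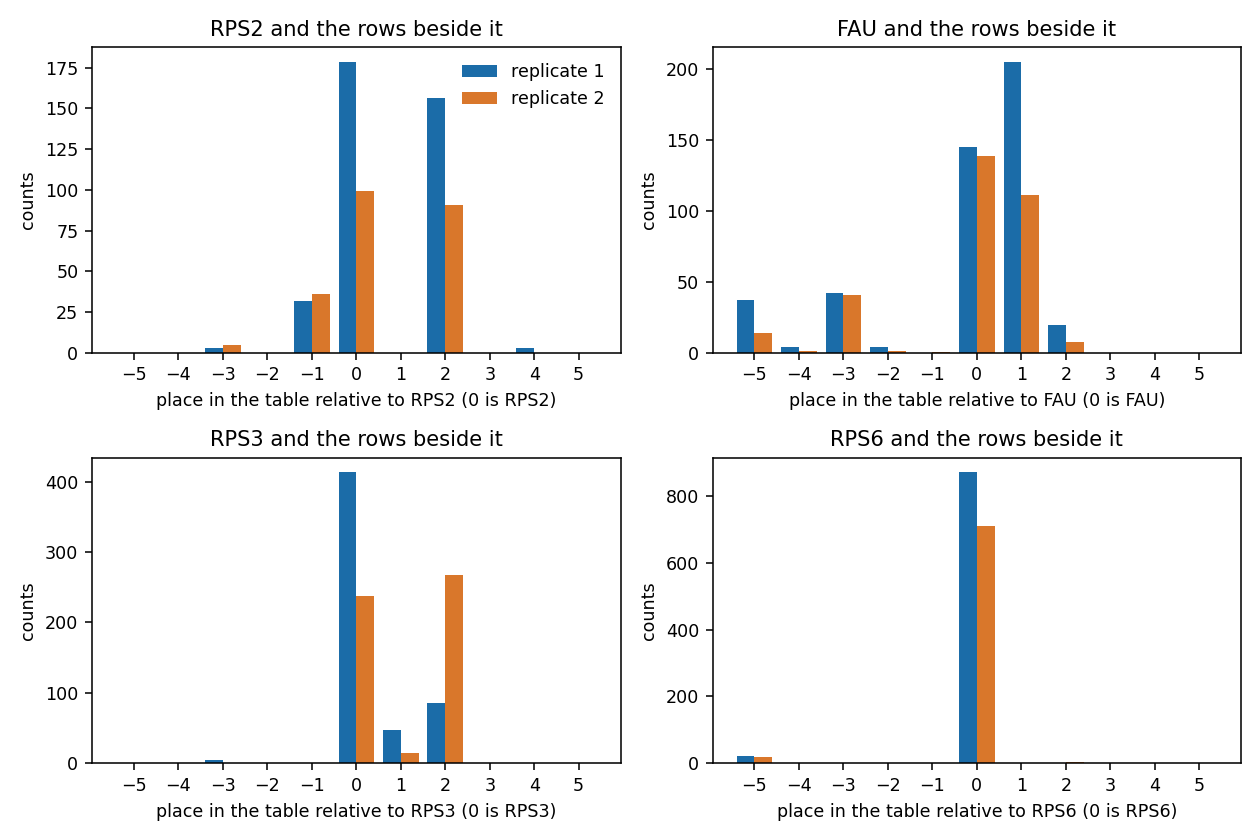
Bars give the counts of RPS2, FAU, RPS3 and RPS6 (place 0) and of the 5 rows on either side in the table, in each library, on linear axes from 0. RPS2 has a row of nearly equal height 2 places on, FAU has a high row beside it, RPS3 has a row that is high in replicate 2, and RPS6 has none.

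At the other end, 6 genes had fewer than 20 summed counts. RPS18 (ENSG00000231500.2), a protein of the head that helps to bridge the subunits, had 0 counts in each library. It was the 1 gene of the 28 at 0 in both, where 71.5% of all IDs in the table were. At these depths a count of 0 still permits as many as 3 counts, which equal 3.46 CPM in replicate 1 and 4.91 CPM in replicate 2. RPS27 (ENSG00000177954.7), a zinc-binding protein, had 1 and 2 counts. RPS3A (ENSG00000145425.5), a protein of the platform, had 5 counts and 0. RPS10, a target of the ubiquitin ligase ZNF598 at stalled ribosomes, had 4.5 and 6.5, and RPS7 had 5 and 7. RPS26, which lies by the mRNA exit channel, had 4 and 12. Each of these proteins is a core component of the subunit, and RPS7, RPS10, RPS26 and RPS27 are among the genes mutated in Diamond-Blackfan anaemia.

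RPS18 lay within a run of 64 successive IDs at 0 in both libraries, 45 before it and 18 after. Of 9958 runs of IDs at 0 in the table, 25 were at least that long, and the median run was 2 IDs. This counts runs, not IDs. Long runs hold more IDs, so a larger part of the 41355 IDs at 0 lies in such runs, and that part was not computed. For RPS10, RefSeq lists a read-through gene, RPS10-NUDT3, over the same span. The row before RPS10 held 7 and 5.5 counts, the row 2 places before it 7.5 and 3.5, and the row 5 places after it 11.5 and 7.5. Whether any of these rows is the read-through gene is not known.

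Low counts were more frequent among genes with many pseudogenes. RefSeq names 656 pseudogenes after the 28 genes, from 4 (FAU and RPS9) to 74 (RPSA), with a median of 17.5. The summed count and this number had a Spearman rho of -0.46 over the 28 genes, -0.44 in replicate 1 and -0.46 in replicate 2. The points share both libraries and are not corrected for length. Of the 12 genes with at most 10 pseudogenes, 10 reached 100 summed counts and 0 were under 20, with a median of 289.5. Of the 16 with more than 10, 5 reached 100 and 6 were under 20, with a median of 35. The limit of 10 was chosen after the values were seen.

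Single genes departed from that order. RPS6 and RPS4X had 26 and 23 named pseudogenes and summed counts of 1580 and 936. RPS28 had 9 and only 26 counts, and RPS18 had 14 and none. RPS2 had 55 pseudogenes and 278 counts, beside a row that held 247. How fragments that match several places were treated is not given in the sources used here, and the part of near-identical copies in these counts was not tested. Counts of all 28 genes are uncertain to that extent.

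**Figure D4:**
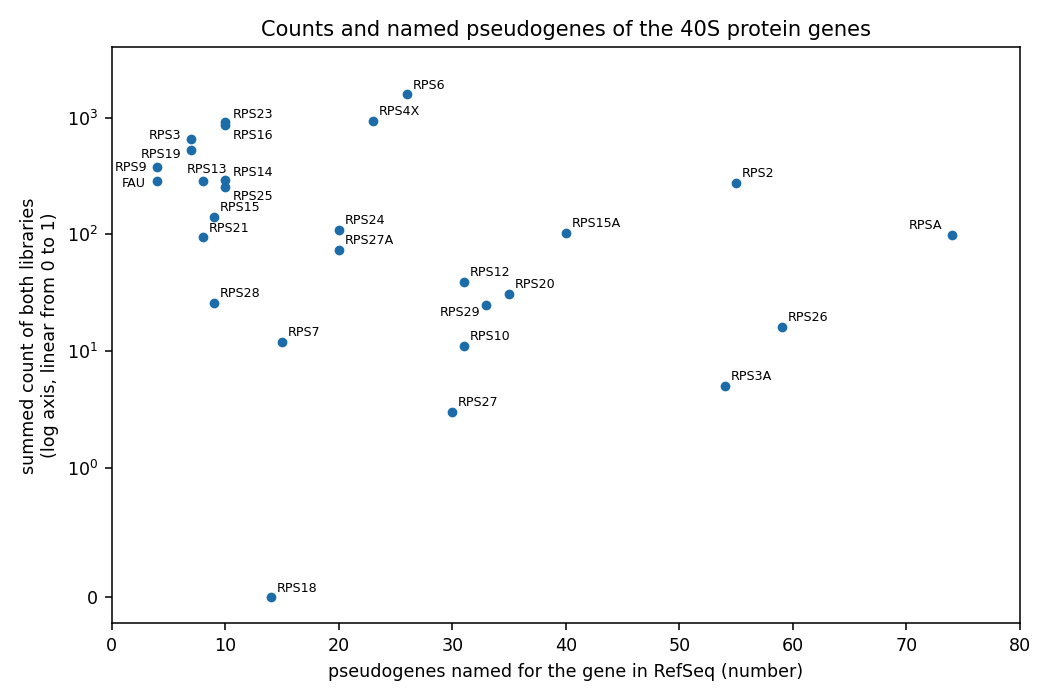
Each point is one 40S protein gene, with the number of RefSeq pseudogenes named for it on the linear x axis and its summed count over both libraries on a log y axis that is linear below 1. The 12 genes with at most 10 pseudogenes all lie at 26 counts or above, and the 6 genes under 20 counts all have 14 or more.

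Grouped by place in the subunit, the 12 proteins of the head held 32.9% of the group's counts in replicate 1 and 32.7% in replicate 2. The 16 of the body and platform held 67.1% and 67.3%. The median summed count was 56.5 for head proteins, with a range of 0 to 859, and 193.5 for the others, with a range of 3 to 1580. The 13 proteins that have a counterpart in bacteria had a median of 278 summed counts, and 9 of them reached 100. The 15 proteins without one had a median of 74, and 6 reached 100. Nothing was tested between these sets, and their counts are not corrected for length.

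The libraries were then compared gene by gene, as the ratio of replicate 2 over replicate 1 after TMM scaling. With 1 library per batch, batch and replicate cannot be told apart, and no condition is contrasted. The 15 genes past a minimum of 100 summed counts had a median log2 ratio of 0.32, and 11 of them were above 0. Over the 22 genes with at least 20 summed counts, a minimum added after the data were seen, the median was 0.10. Of all 2241 IDs with at least 100 summed counts, 43.2% had a ratio above 0, and their median was -0.07. By library size the medians were 0.21 and -0.18, and 8 of the 15 genes were higher in replicate 2, as were 750 of the 2241 IDs. The change of scaling moved every log2 ratio by the same amount, 0.11. The gap between the genes' median and that of all IDs is therefore the same under both by construction.

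For 7 of the 15 genes the 95% exact binomial interval lay wholly above 0, where 15.6% of the 2241 IDs did so. None of the 15 had an interval wholly below 0, where 22.3% of all IDs did. The interval narrows as the count rises, and the 2241 IDs were not matched to the 15 genes for depth. The 7 genes had summed counts between 256 and 1580, so their share and that of all IDs are not directly comparable. RPS16 was highest, with a log2 ratio of 0.82 (95% interval 0.63 to 1.02), from TMM-scaled levels of 443 CPM in replicate 1 and 783 CPM in replicate 2. RPS25, a head protein needed for several viral internal ribosome entry sites, followed at 0.75 (0.38 to 1.11), from TMM-scaled levels of 136 and 227 CPM. RPS13 was at 0.58 (0.24 to 0.93), FAU at 0.55 (0.20 to 0.90) and RPS9 at 0.43 (0.13 to 0.73). RPS23 and RPS6 were the others, at 0.39 and 0.32. Of the 5 head proteins among the 15, RPS16 and RPS25 were above 0, as were 9 of the 10 of the body and platform; by library size 6 of those 10 were (RPS4X, RPS14 and RPS24 were then below 0).

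The lowest ratios among the 15 were those of RPS2, at -0.22 (-0.59 to 0.14), or -0.68 (-1.98 to 0.50) with the row 2 places on taken off, and RPS3, at -0.19 (-0.43 to 0.04). RPS15, RPS19, the gene most often mutated in Diamond-Blackfan anaemia, and RPS24 were at -0.12, -0.07 and 0.05, with intervals that included 0. Within 1.5-fold lay 13 of the 15 genes, and all 15 lay within 2-fold, where 79.7% and 94.9% of the 2241 IDs did. No gene of the 15 had an interval wholly beyond 2-fold in either direction, where 0.803% of all IDs did (0.491% higher in replicate 2 and 0.312% higher in replicate 1).

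RPS12 (ENSG00000112306.7), a head protein with 39 summed counts, fell outside that comparison and had the widest gap of the 22 genes with at least 20. Replicate 1 had 35 of its counts and replicate 2 had 4, which put the log2 ratio at -2.52 with bounds of -4.47 and -1.03. At a minimum of 20 summed counts, a limit chosen after the data were seen, it was the only one of the 22 genes wholly beyond 2-fold, where 1.22% of 6965 IDs were (0.416% higher in replicate 1, as RPS12 was). The row before RPS12 had 71 and 42 counts, the row after it 5 and 0, and the row 2 places after it 15 and 16. RefSeq lists 3 snoRNAs within the gene, and whether any of these rows is one of them is not known. RPS26 lay the other way at 2.20 (0.47 to 4.29), from 4 and 12 counts, at a depth of only 16 counts.

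**Figure D5:**
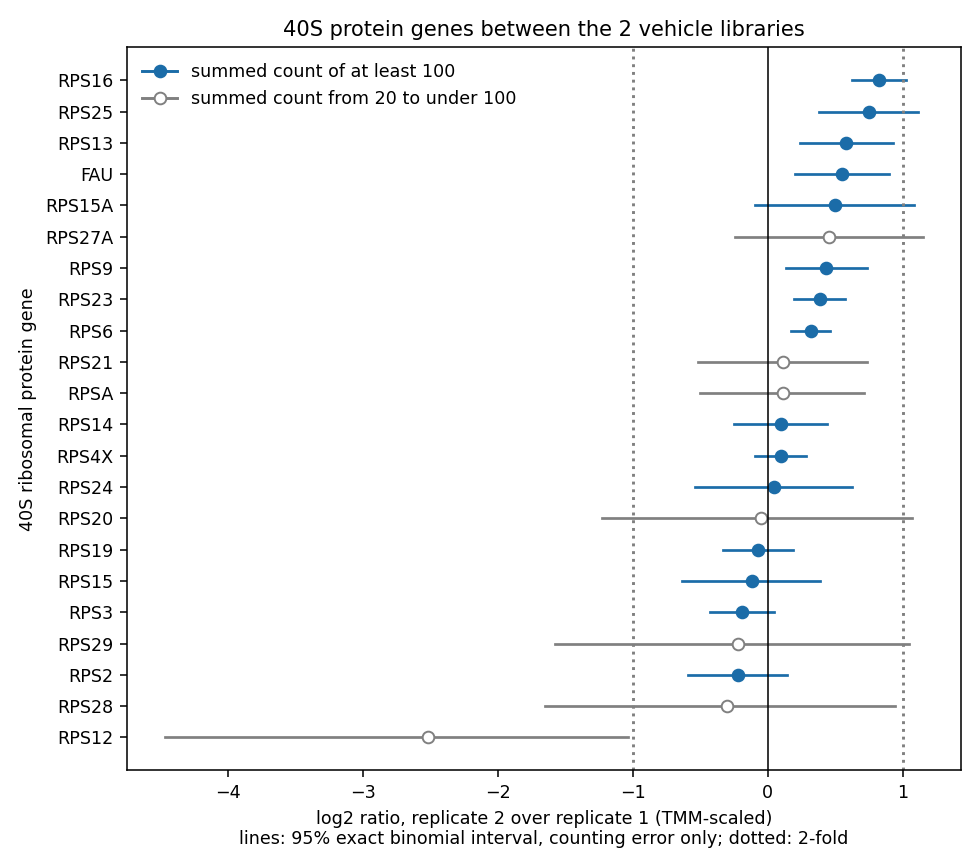
Points give the log2 ratio of replicate 2 over replicate 1 (TMM-scaled) for the 22 genes with at least 20 summed counts, and lines the 95% exact binomial interval for counting error only; filled points have at least 100 summed counts. Of the 15 filled points 11 lie above 0 and all lie within 2-fold, and RPS12 lies alone at -2.52.

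RPS27A and RPSA were measured at modest depth. RPS27A had 39 and 35 counts (51.2 CPM ± 8.64), and RPSA, also known as the laminin receptor precursor, had 58.5 and 41 (67.3 CPM ± 0.347). RPS21 had 55 and 39 counts and RPS20 had 19 and 12. RPS29, another zinc-binding protein of the head, had 16 and 9. RPS14, the platform protein whose loss underlies the anaemia of a myelodysplastic syndrome, had 173 and 121 counts and RPS9 had 199 and 176. RPS15A had 53 and 49 counts, RPS24 had 65 and 44, RPS15 had 88 and 53 and RPS19 had 323 and 201. For these genes the interval of the ratio included 0, apart from RPS9.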

How the data were processed

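The authors' deposited table gives counts of fragments of 27 to 29 nt per Ensembl gene ID, 1 column per library, per the labels. Some deposited values are not whole, so they were treated as estimated counts. Ribosomal RNA was not depleted, per the labels' protocols. The submitters' processing notes name hg19 as the build. The sources used here do not state the aligner, counter, annotation, strand setting or rule for dividing fragments.

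The 31 genes were matched by ID before the dot. Members and lists were chosen with earlier results of these data known. Of these, 3 are not reported here and the other 28 were described. The rule for the genes given in full took the 8 highest and 8 lowest by mean CPM, the 5 largest ratios in each direction, genes past the 2-fold rule, genes with non-whole counts, RPS27A and FAU; RPS12, RPS26 and the limit of 10 pseudogenes were also looked at after values were seen. CPM used deposited values over each library's sum. Ratios used counts rounded to whole numbers and TMM factors (edgeR 4.0.16, R 4.3.3, alternative DESeq2 1.42.0) over 6965 IDs with at least 20 summed counts. Their conditional exact binomial intervals were tested on simulated data with counting error as the only noise. That test cannot show how the intervals cover other differences between libraries. With 1 group there was no contrast and no p-value. RefSeq rows carried no Ensembl ID, so other IDs stayed unnamed, and the large-subunit, assembly-factor and cell marker lists could not be applied. All 28 symbols were found in RefSeq (GRCh38.p14), which gave pseudogenes (symbol plus P and a number), snoRNAs inside gene spans and start sequences; its coordinates are of another build than the counts. Values were called whole within 0.001. Calculations used Python 3.11.15, numpy 2.4.6, pandas 2.3.3 and scipy 1.17.1.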

Additional observations from a re-analysis of the deposited data

How the results depend on the processing

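The share of the 28 genes in all counts, 0.549%, was 0.692% with the 2 highest IDs of the table out of the total. Chosen after the data were seen, taking the neighbouring row off RPS2 gave 0.533% and leaving out RPS6 gave 0.441%; these follow from the removal itself. Single libraries gave 0.517% to 0.581% for the share, 1 gene among the 100 highest IDs in each, and 71.3 to 76.1 CPM for the median level. The median log2 ratio of 0.32 kept its sign under each scaling run, from 0.21 by library size to 0.39 with factors from IDs of at least 100 counts, and was 0.10 over the 22 genes with at least 20 summed counts. Genes wholly beyond 2-fold, 0 in each direction, became 1 higher in replicate 2 at a 1.5-fold limit (RPS16) and 1 higher in replicate 1 at a minimum of 20 summed counts (RPS12). Genes with an interval wholly below 0 went from 0 to 1 by library size (RPS3) and to 1 at a minimum of 20 (RPS12). The count of genes with an interval wholly above 0 was 7 under each alternative run. Levels of single genes moved by between -3.70% and 2.43% under TMM scaling. Footprints per codon, planned as a result, were not run, because no coding lengths were used here. No paired analysis was possible because there is only 1 group. Depth limits the 6 genes under 20 summed counts.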
